A study of Arabidopsis thaliana with 4 samples.

Results

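Tetraspanins are the subject of this account. They are represented by 12 of the 26474 gene probes on the array, which list 13 of the 13856 genes named on measured probes. The probes were chosen by a symbol made of TET and a number in the platform annotation and selected on having a measured ratio, one short of the 100-fold limit of the deposited scale, on at least 3 arrays. All 12 such probes passed that filter, since each was measured on all 4 arrays, and none lay outside it. The largest of their ratios had a size of 2.04, far from the limit. Of the 12 probes, 4 list exactly 1 gene, and these stand for TET7, TET10, TET12 and TET13. The other 8 list several tetraspanin genes each and are kept apart, because the transcript behind such a ratio cannot be assigned to a single gene. The gene table holds 17 tetraspanin genes, of which 9 are listed on shared probes alone and 4 by no probe. The genes listed by no probe are TET1, which the gene table calls TRN2, TET2, TET16 and TET17. Of the 25777 gene probes measured on at least 3 arrays, 12844 have no gene name here. A missing listing therefore does not show that the array lacks a probe for a gene. This holds also for the other genes looked up below.

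Tetraspanins are small proteins that cross the membrane repeatedly, carry a large extracellular loop with conserved cysteines and assemble with one another and with partner proteins into membrane microdomains. In Arabidopsis they are known from cell fate, organ growth, reproduction and the release of vesicles from the cell. TET1, also called TORNADO2, is required for the patterning of leaves and roots. TET11 and TET12 are known from the sperm cells of pollen, and TET8 is a marker of extracellular vesicles.

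Total RNA from inflorescences of Arabidopsis thaliana was compared on 4 Operon arrays with 2 channels, called sets 1 to 4, and each array held apetala2 mutant RNA beside wild-type RNA. APETALA2 is a transcription factor of sepal and petal identity, and the question was which transcripts differ in abundance in its mutant. Per the labels, channel 1 held the mutant on sets 1 and 3, and channel 2 held it on sets 2 and 4. Allele, accession, plant age and pooling are not in the labels, nor is it stated that separate plants stand behind each set, so the p-values speak only for the spread among arrays, possibly a technical one. No probe is annotated with AP2, and probes without a gene name could not be searched for it. The mutated gene itself could therefore not be examined. Each array gave 25741 to 25841 measured ratios of gene probes. The number of arrays limits precision, and the brightness of the spots is unknown.

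The sign of the ratios is not settled. The sources used here do not say which channel is the numerator. Over the 25185 probes measured on all arrays, the correlation was -0.249 between sets 1 and 3 and -0.136 between sets 2 and 4, although each of these pairs shares its labelled channel. Of the pairs whose labelled channels differ, sets 1 and 2 had -0.505 and sets 3 and 4 had -0.509, the sign that the labels give, whereas sets 1 and 4 had 0.317 and sets 2 and 3 had 0.310. The signs of the correlations thus went with the labels within sets 1 and 2 and within sets 3 and 4, and not between these pairs. The reason was not tested. These correlations are across probes, which share an array and are not independent. Means are therefore given in 2 orientations. In the labelled orientation sets 2 and 4 are turned in sign. A positive value then means more signal from apetala2, provided that channel 1 is the numerator and the labels hold on all 4 arrays. In the other orientation sets 2 and 3 are turned. A probe lies on the negative side when its mean so signed is below 0. Negative ratios on sets 1 and 4 with positive ones on sets 2 and 3 give this. Neither genotype is therefore named as the higher for any gene. In whole inflorescences fewer cells of a type and less RNA per cell cannot be told apart.

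TET12 had deposited log2 ratios of -0.91, 0.74, 0.62 and -1.098 on sets 1 to 4. Sets 1 and 4 were thus low and sets 2 and 3 high, with no overlap between these pairs of arrays, and the sizes ranged from 0.62 to 1.098. With sets 2 and 3 turned the mean was -0.84 ± 0.13 on the log2 scale (SE, n = 4), a 1.79-fold difference. Signed by the labelled channels, sets 1 and 2 gave -0.91 and -0.74, sets 3 and 4 gave 0.62 and 1.098, and the mean was 0.02 ± 0.39 (SE, n = 4). The labelled means of the pairs of sets were -0.82 and 0.86, so this probe ran in opposite directions in sets 1 and 2 and in sets 3 and 4. TET12 was chosen with its ratios in the turned orientation known. These values therefore describe the gene, carry no test, and fix its labelled mean near 0.

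**Figure D1:**
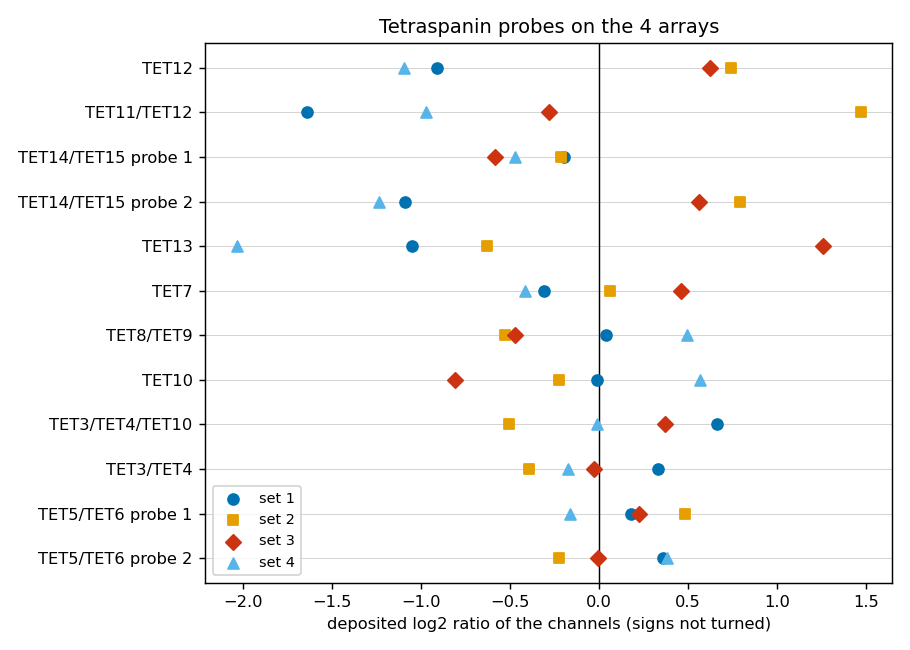
Deposited log2 ratios (horizontal axis, signs not turned) of the 12 tetraspanin probes, with 1 marker for each of sets 1 to 4. TET12 and the second TET14/TET15 probe lie below 0 on sets 1 and 4 and above 0 on sets 2 and 3, and TET13 spans the widest range, from -2.04 to 1.26.

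The shared probe of TET11 and TET12, the pair of sperm-cell tetraspanins, had ratios of -1.64, 1.47, -0.28 and -0.97 on sets 1 to 4. It had the sign of the TET12 probe on 3 of 4 arrays and differed from it by 0.91 on set 3, where the signs were opposite. Its mean was -0.95 ± 0.33 with sets 2 and 3 turned and -0.61 ± 0.47 in the labelled orientation (SE, n = 4, labelled limma adjusted p = 0.809). Under the labelled signs its pair means were -1.56 for sets 1 and 2 and 0.34 for sets 3 and 4, so its larger pair mean came from sets 1 and 2. Its labelled mean was -0.26 without set 1 and -1.13 without set 4. Which of its genes the shared probe measured was not tested.

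TET14 and TET15 are listed together on 2 probes, and these disagreed. The first probe had ratios of -0.20, -0.21, -0.59 and -0.48 on sets 1 to 4, all below 0 without any turning. The second had -1.09, 0.79, 0.56 and -1.24. The probes had opposite signs on sets 2 and 3, with a largest gap of 1.15 on set 3. With sets 2 and 3 turned the first had a mean of 0.03 ± 0.20 and the second one of -0.92 ± 0.15 (SE, n = 4), a 1.89-fold difference for the second. In the labelled orientation both means were -0.02, with SE of 0.20 and 0.43 (n = 4, limma adjusted p = 0.988 and 0.994).

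TET13, a tetraspanin of root meristem and lateral root formation, had the widest spread among the probes with 1 gene. Its ratios were -1.05, -0.63, 1.26 and -2.04 on sets 1 to 4, so that set 2 shared the sign of sets 1 and 4. The mean was -0.93 ± 0.42 with sets 2 and 3 turned, against 0.72 ± 0.50 in the labelled orientation (SE, n = 4, labelled limma adjusted p = 0.797). Its labelled pair means were -0.21 for sets 1 and 2 and 1.65 for sets 3 and 4. TET13 thus had its larger pair mean in the opposite pair of arrays to the TET11/TET12 probe. Its labelled mean was 1.31 without set 1 and 0.28 without set 4, and its turned mean was -1.45 without set 2 and -0.56 without set 4.

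TET7 had ratios of -0.31, 0.06, 0.46 and -0.42 on sets 1 to 4. The signs were those of TET12 on all 4 arrays, at smaller size. Its mean was -0.31 ± 0.13 with sets 2 and 3 turned and 0.13 ± 0.18 in the labelled orientation (SE, n = 4, labelled limma adjusted p = 0.896).

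TET8 and TET9 share 1 probe, and it ran opposite to TET12. Its ratios were 0.04, -0.53, -0.47 and 0.49 on sets 1 to 4. TET8 is the vesicle marker named above, and TET9 is its relative. The mean was 0.38 ± 0.14 with sets 2 and 3 turned and -0.10 ± 0.21 in the labelled orientation (SE, n = 4, labelled limma adjusted p = 0.944). Set 1 gave little of this, with a ratio near 0.

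TET10 had ratios of -0.01, -0.23, -0.81 and 0.57 on sets 1 to 4. It lay on the positive side with sets 2 and 3 turned, with a mean of 0.40 ± 0.17, and had -0.29 ± 0.21 in the labelled orientation (SE, n = 4, labelled limma adjusted p = 0.800). The probe listing TET10 beside TET3 and TET4 did not resemble it, with the same sign on 1 of 4 arrays and ratios of 0.66, -0.50, 0.37 and -0.01. It resembled the probe of TET3 and TET4 more, which had 0.33, -0.40, -0.03 and -0.18 and differed from it by at most 0.40. TET3 is known as a protein of plasmodesmata, the channels between plant cells.

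The TET3/TET4/TET10 probe was the only member with 1 sign on all 4 arrays in the labelled orientation, where its values were 0.66, 0.50, 0.37 and 0.01. Its labelled mean was 0.39 ± 0.15, a 1.31-fold difference, and that of the TET3/TET4 probe was 0.22 ± 0.13 (SE, n = 4), with limma adjusted p of 0.760 and 0.774. Neither passed the threshold, an adjusted p under 0.05 over all 25777 probes tested. The unadjusted limma p of the TET3/TET4/TET10 probe was 0.0445. In the turned orientation the same probes had 0.20 ± 0.20 and 0.14 ± 0.15 (SE, n = 4).

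TET5 and TET6, which act redundantly in restricting organ size, are listed together on 2 probes with small ratios. The first had 0.18, 0.48, 0.22 and -0.16 on sets 1 to 4 and the second 0.36, -0.23, -0.01 and 0.38. They shared a sign on 1 of 4 arrays, and their means with sets 2 and 3 turned were -0.17 ± 0.15 and 0.24 ± 0.13 (SE, n = 4). In the labelled orientation the means were 0.02 ± 0.16 and 0.05 ± 0.16 (SE, n = 4), with limma adjusted p of 0.987 and 0.967.

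**Figure D2:**
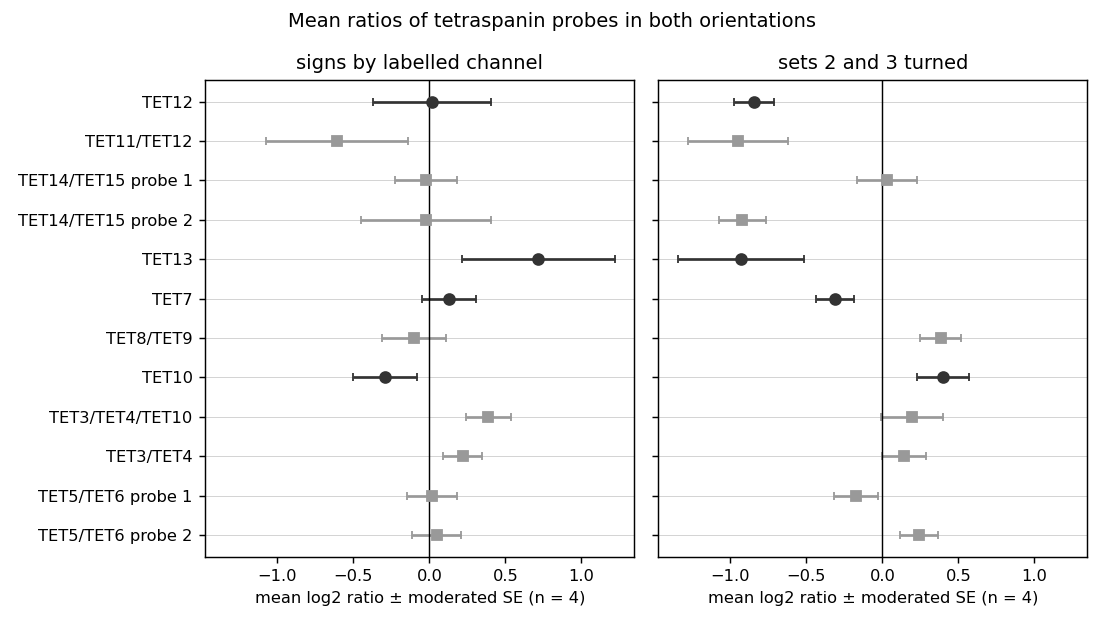
Mean log2 ratio of each tetraspanin probe with its moderated standard error (n = 4 arrays), in the labelled orientation on the left and with sets 2 and 3 turned on the right. Circles are probes with 1 gene and squares probes with several. In the right panel TET12, TET11/TET12, the second TET14/TET15 probe and TET13 lie between -0.95 and -0.84.

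In the labelled orientation 0 of the 12 tetraspanin probes passed in limma, against 0% of all probes, and a test without moderation also gave 0. At an unadjusted limma p under 0.05 there was 1 of 12, the TET3/TET4/TET10 probe, against 6.55% of all probes. The same sign on all 4 arrays was found for 1 of 12 probes, against 16.3% of all probes measured on 4. The median of the 12 labelled means was 0.02, beside 0.02 over all tested probes. Of the 12 means, 7 lay above 0 and 5 below.

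In the turned orientation 1 of 12 tetraspanin probes passed, that of TET12 on the negative side, against 2.05% of all probes in either direction and 1.82% on the negative side. Because TET12 was chosen with this contrast known, nothing is read from that count, and among the other 11 probes 0 passed in limma. Of these 11, 4 had an unadjusted p under 0.05, against 13.1% of all probes. They were the TET11/TET12 probe, the second TET14/TET15 probe and TET7 on the negative side and the TET8/TET9 probe on the positive side. The same sign on all 4 arrays was found for 4 of the 11, the last 3 of these and the second TET5/TET6 probe, against 23.0% of all probes. These counts describe the contrast used in choosing the family and are no test of it, and several of the probes list the same genes.

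The family as a whole did not lie on a single side. Of the 12 means with sets 2 and 3 turned, 6 were negative and 6 positive, and their median was -0.07. Without TET12, which was chosen on this contrast, the median of the 11 means was 0.03, beside 0.03 over all tested probes. The 3 other probes with 1 gene had a median of -0.31, beside 0.04 over all tested probes with 1 gene, and the 8 shared probes one of 0.09. The sizes of the 11 means had a median of 0.31, beside 0.16 over all tested probes. These 11 still include the shared probe of TET11 and TET12. The sizes are taken in the contrast used in choosing the family, so this is a description and no test. Only 4.62% of all tested probes had a mean below that of TET12, and 3.86%, 4.04% and 4.01% had one below those of the TET11/TET12 probe, the second TET14/TET15 probe and TET13. Thus the mean of TET12 was not the lowest of the family. Its standard error was 0.13, against 0.15 for the second TET14/TET15 probe, 0.33 for the TET11/TET12 probe and 0.42 for TET13.

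**Figure D3:**
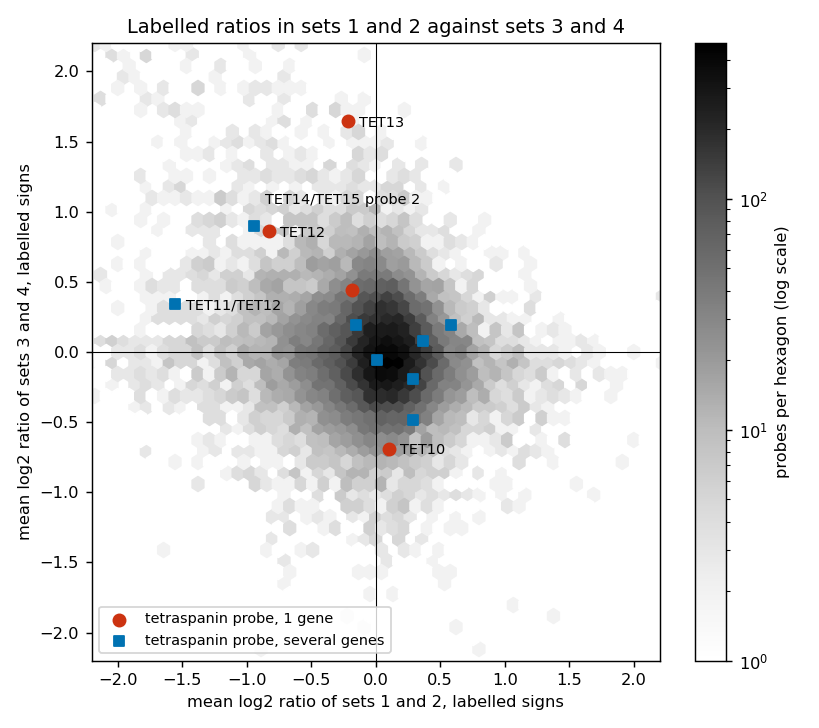
Mean log2 ratio of sets 1 and 2 (horizontal axis) against that of sets 3 and 4 (vertical axis), both signed by the labelled channels, for the tetraspanin probes (coloured) over all probes measured on 4 arrays (grey hexagons, number of probes on a log scale). TET12 lies at -0.82 and 0.86, TET11/TET12 at -1.56 and 0.34, and TET13 at -0.21 and 1.65. A few probes of the whole table lie beyond the plotted range.

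Under the labelled signs, the mean of sets 1 and 2 was opposite to that of sets 3 and 4 for 10 of the 12 tetraspanin probes, against 55.0% of all probes, and for 9 of the 11 without TET12. The exceptions were the probes of TET3/TET4/TET10 and TET3/TET4, which had positive means in both pairs, 0.58 and 0.19 for the former and 0.36 and 0.07 for the latter. The sorting goes by sign alone and counts the first TET14/TET15 probe as opposite, although its pair means were only 0.007 and -0.055. Several of the probes list the same genes. This sorting uses the same ratios as the turned orientation and adds no separate support to it.

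The 4 ratios of a probe can be divided into 4 contrasts that together hold its whole sum of squares. For TET12, 95.7% of it lay in the contrast of sets 1 and 4 against the others and for the second TET14/TET15 probe 92.5%. This contrast held 80.0% for TET7, 78.7% for TET8/TET9, 72.8% for the second TET5/TET6 probe, 61.4% each for TET11/TET12 and TET10, and 47.8% for TET13. It was the largest of the contrasts for TET12 and for 7 of the other 11 probes, and for 37.7% of all probes, which is a description, since TET12 was chosen on it. The labelled contrast was the largest for TET3/TET4/TET10, with 72.4%, and TET3/TET4, with 64.3%. The mean of the unturned ratios, in which the labelled genotypes cancel, was the largest for the first TET14/TET15 probe, with 82.8%, and the first TET5/TET6 probe, with 38.0%. The first TET5/TET6 probe had nearly as much, 35.2%, in the contrast of sets 1 and 4 against the others. By the largest contrast alone, probes that list the same genes thus differed in both of these pairs of genes, narrowly so for TET5/TET6.

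**Figure D4:**
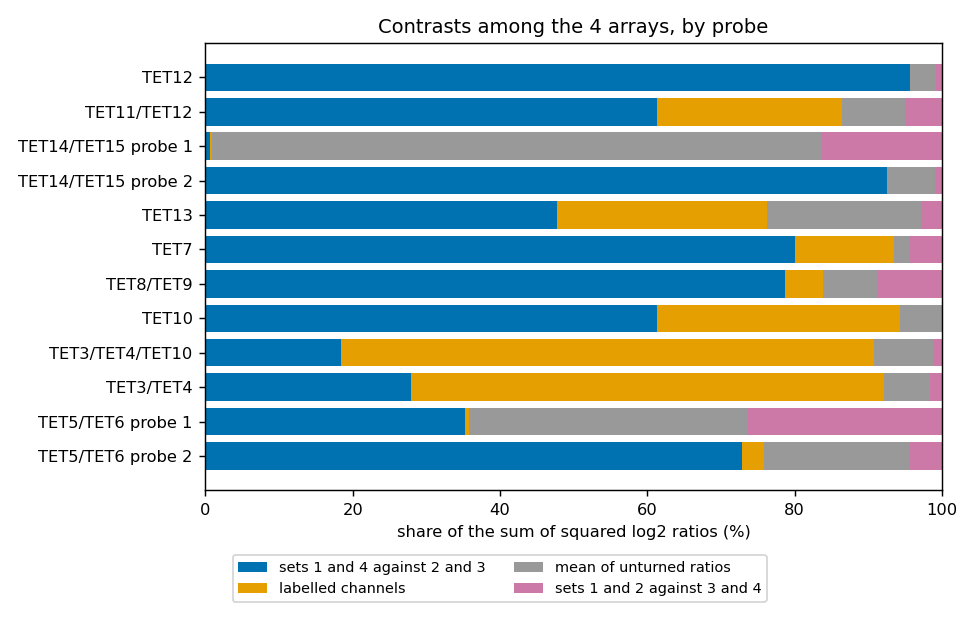
Share of the sum of squared log2 ratios of each tetraspanin probe (%, horizontal axis) in each of 4 orthogonal contrasts among the arrays. Sets 1 and 4 against the other sets fill 95.7% of the bar of TET12 and 0.594% of that of the first TET14/TET15 probe.

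The likeness of other probes to TET12 was measured as the Euclidean distance over the 4 deposited log2 ratios. Among 5507 probes with 1 gene outside the family, the median distance was 1.91. The nearest 5 were AT4G25900 at 0.191, AT1G28100 at 0.302, AT1G16260 at 0.355, AT2G41780 at 0.372 and AT4G39230 at 0.390, which the gene table names by locus alone. AT4G25900 had ratios of -0.85, 0.63 and 0.73 on sets 1 to 3 and of about the same size as TET12 on set 4. Within the family the second TET14/TET15 probe was the nearest, at 0.242, and of 25184 probes only 4 were nearer to TET12. The TET11/TET12 probe, at a distance of 1.38, had 2765 probes nearer, and TET7, at 1.15, had 1272. The farthest member was TET10, at 2.56.

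**Figure D5:**
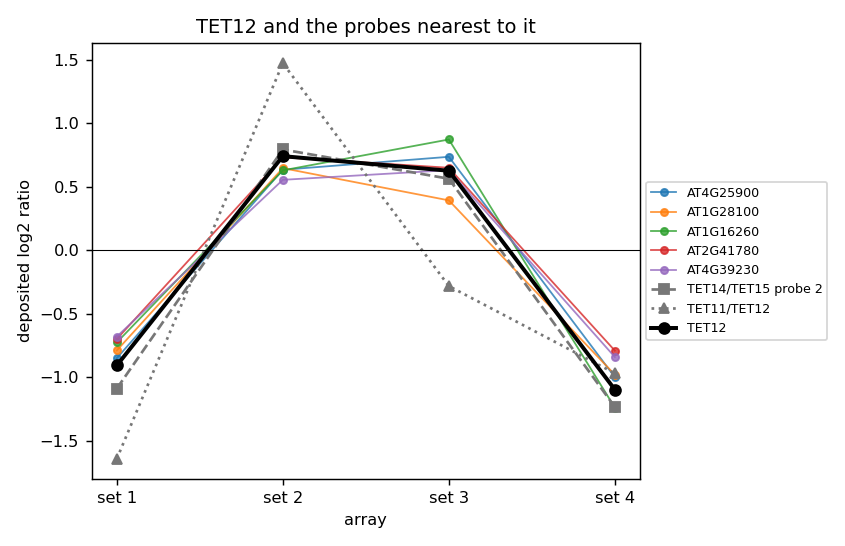
Deposited log2 ratios (vertical axis) on sets 1 to 4 of TET12 (black), the 5 nearest probes with 1 gene outside the family (coloured), the second TET14/TET15 probe (dashed) and the TET11/TET12 probe (dotted). The TET11/TET12 probe parts from the others on set 3, where it had -0.28 against 0.62 for TET12.

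Since TET11 and TET12 are genes of the male germline, probes of pollen genes are given beside them. Of 13 male germline genes listed, 11 matched the gene table and none had a probe of its own measured on at least 3 arrays. The 1 shared probe so measured lists the histone genes HTR12 and MGH3, the latter a histone variant of sperm cells. HTR12 is not in the list, so the ratio of this probe cannot be assigned to the male germline. The probe had ratios of -0.40, 0.79, 0.34 and -0.33 on sets 1 to 4. Its signs were those of TET12, and its mean was -0.46 ± 0.13 with sets 2 and 3 turned and -0.13 ± 0.23 in the labelled orientation (SE, n = 4, labelled limma adjusted p = 0.933).

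Of 27 genes of the vegetative cell of mature pollen, 25 matched and 1 had a probe of its own measured on at least 3 arrays. That gene, TUA1, an alpha-tubulin, had ratios of -0.49, 0.71, 0.36 and -0.56 on sets 1 to 4 and a mean of -0.53 ± 0.12 with sets 2 and 3 turned and -0.07 ± 0.26 in the labelled orientation (SE, n = 4, labelled limma adjusted p = 0.971). The 7 shared probes of this list had means from -2.38 to -1.80 with sets 2 and 3 turned and all 7 passed, against 1.82% of all probes on the negative side. In the labelled orientation 0 of the 7 passed in limma, and their means ranged from -0.34 to 0.61, with 2 below 0 and a median of 0.11. The probe at -1.80 lists ANX1 and ANX2 beside FER, which is also in the egg and synergid list. Several of the 7 list the same genes. For the rest of the list, no probe measured on at least 3 arrays was found. Of the 7, 1 that lists VGD1 and VGDH1 was measured on 3 arrays only. With sets 2 and 3 turned the probes found through the pollen lists thus had means on the side of TET12. The 7 shared probes had larger sizes, and those of TUA1 and HTR12/MGH3 had smaller ones. Their part in the TET12 ratio was not tested.

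The list of tetraspanin partners and genes of vesicle secretion held 18 symbols, of which 17 matched. SEC6, an exocyst subunit, had 0.06 ± 0.12 with sets 2 and 3 turned and 0.02 ± 0.12 in the labelled orientation, and ARA6, a Rab GTPase of endosomes, 0.15 ± 0.15 and 0.08 ± 0.16 (SE, n = 4). Neither passed in either orientation (labelled limma adjusted p = 0.982 and 0.941). Of 6 shared probes 0 passed in the labelled orientation, and 1 passed with sets 2 and 3 turned, on the negative side, where 1.82% of all probes did. It lists the exocyst gene EXO84B beside AT1G10385. Its ratios were -1.17, 1.03, 1.44 and -2.19 on sets 1 to 4, and its mean was -1.46 ± 0.21 with sets 2 and 3 turned and 0.36 ± 0.65 in the labelled orientation (SE, n = 4). Another probe listing EXO84B had 0.03 ± 0.14 and -0.04 ± 0.14 in these orientations (SE, n = 4), so its probes disagreed with sets 2 and 3 turned. These shared probes were picked out after their values had been seen. For TRN1, a partner of TET1 in leaf patterning, no probe measured on at least 3 arrays was found.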

How the data were processed

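The authors deposited log2 ratios of the 2 channels of each Operon array, which they had normalized by a published procedure, per the labels. How the spots were scanned, corrected and filtered is not stated there. Values within 0.0001 of the scale limit, the log2 of a 100-fold ratio, were left out, as were control spots. Probes took their genes from the platform annotation, and the RefSeq table of TAIR10.1 gave current symbols. Coordinates are left out, since the labels do not name the build used in probe design. Ratios were fitted with an intercept in limma 3.58.1 (R 4.3.3, lmFit and eBayes, two-sided) over 25777 probes measured on at least 3 arrays, with Benjamini-Hochberg adjustment over all of them. Errors are moderated standard errors. In a simulation of 25185 probes with the turned orientation's spread, the fit recovered 46% of log2 changes of 1 and 78% of changes of 2. It made 11 false calls. The members, the gene lists and the turned orientation were chosen with earlier results of these data known. The genes named are all members, the 5 probes with 1 gene nearest to TET12 and up to 4 members with a probe of their own per list. List genes named from shared probes, and TRN1, were chosen after the values or the probe coverage had been seen. The alternatives covered each array left out, the limit values, the filter, centring, a channel term, averaged sets, moderation and probe naming.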

Additional observations from a re-analysis of the deposited data

Results flagged for a closer look

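The 4 array values of each of 12 probes were examined in 2 orientations, 24 sets in all, for an array that stands apart by Dixon's test (95% level). This was found for 2 of them, and chance gives about 1 in 20. The first TET5/TET6 probe had -0.482 on set 2 in the labelled orientation, whereas its other arrays gave 0.164 to 0.224. With sets 2 and 3 turned, the TET8/TET9 probe had 0.0396 on set 1, and its other arrays gave 0.473 to 0.531.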

How the results depend on the processing

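In the labelled orientation 0 of all probes passed under every alternative run. The count of tetraspanin probes past the threshold thus stayed at 0 there of necessity. With sets 2 and 3 turned it was 1 and rested on all 4 arrays, since it lay between 0 and 0 when any of sets 1, 2, 3 or 4 was left out. It was also 0 with the limit values kept, with a channel term, with sets 1 and 2 and sets 3 and 4 averaged to 2 replicates, without moderation and among probes with several genes. It was 2 over probes measured on all 4 arrays, where the second TET14/TET15 probe passed beside TET12. In that run 585 of all 25185 probes passed. The count over all probes was 528, and it was 94, 441, 117 and 116 without sets 1, 2, 3 and 4, 158 with the limit values kept, 273 with a channel term, and 0 with averaged sets and without moderation. The cause was not tested. The mean of TET12 with sets 2 and 3 turned stayed between -0.92 and -0.76 in all 11 alternatives. Without single arrays the labelled means of TET12, TET8/TET9 and both probes each of TET14/TET15 and TET5/TET6, and the turned mean of the first TET14/TET15 probe, changed sign. No paired analysis was possible because the arrays form 1 group, so no groups share replicate numbers, and each ratio already sets both genotypes of 1 array against each other.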

Other observations

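Markers of other floral tissues that could move with the tetraspanins were measured on few probes. Of the egg and synergid list, EC1.1 and EC1.5, small secreted proteins of the egg cell, had labelled means of 0.83 ± 0.30 and 0.60 ± 0.20 (SE, n = 4, limma adjusted p = 0.760 each). Their turned means were 0.33 ± 0.43 and 0.19 ± 0.30 (SE, n = 4). FER, a receptor kinase of pollen tube reception, had -0.02 ± 0.11 in the labelled orientation (SE, n = 4, limma adjusted p = 0.978) and -0.04 ± 0.11 in the turned one (SE, n = 4). EC1.1 had ratios of 1.72, -0.61, -0.06 and -1.07 on sets 1 to 4, so the largest lay on set 1. The 4 shared probes of the egg and synergid list had labelled means from -0.15 to 0.35, 3 of them above 0, and none passed. The probe below 0 lists EC1.1 and EC1.4 and had 0.65 on set 2, where the EC1.1 probe had -0.61. With sets 2 and 3 turned the 4 ranged from -1.80 to 0.30. The lowest is the probe of ANX1, ANX2 and FER given above. Of the anther and tapetum list, 7 probes with 1 gene had labelled means from -1.07 to 0.28 and none passed. With sets 2 and 3 turned they ranged from -1.27 to 0.65. On the negative side lay 5 of the 7, against 43.4% of all tested probes with 1 gene. Some of them list the same gene, and the probes of ATA27 disagreed, at -1.27 and 0.24. The 2 shared probes of this list had turned means of -2.07 and -0.21. That at -2.07, which lists AtVEX1, SWEET8 and SWEET4, passed on the negative side, where 1.82% of all probes did. Their labelled means were -0.49 and -1.15, and neither passed. Of the carpel and ovule list, the 3 probes of INO, which directs growth of the outer integument, ranged from -0.66 to -0.04 with sets 2 and 3 turned and from -0.38 to 0.01 in the labelled orientation. The 5 shared probes of this list lay on the other side with sets 2 and 3 turned, from 0.12 to 1.29 with a median of 0.36, and 1 of them, which lists ALC and SPT, passed on the positive side, where 0.225% of all probes did. In the labelled orientation these 5 ranged from -0.07 to 0.31 and none passed. PRK and SBPASE, enzymes of the Calvin cycle, had labelled means of 0.60 ± 0.30 and 0.23 ± 0.17 (SE, n = 4, limma adjusted p = 0.760 and 0.803), and turned means of -0.51 ± 0.32 and -0.16 ± 0.18 (SE, n = 4), of opposite sign.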
